A study of Homo sapiens with 60 samples.

Results

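The genes described here are 30 genes of cholesterol synthesis and uptake, taken by symbol from the 60675 genes counted in SW1783 cells. SW1783 is an established human astrocytoma line. The genes encode sterol-sensing proteins, the enzymes from acetyl-CoA units to cholesterol, proteins that carry or take up sterols, and MMAB, a cobalamin enzyme whose gene lies head to head with MVK. All 30 symbols were found, and 29 genes had enough counts to be tested. NPC1L1, an intestinal sterol transporter, did not, with a vehicle mean of 0.0745 CPM (counts scaled to the size of each library).

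Cells in L-15 medium with serum received the vehicle or an extract for 24 h. Vehicle was DMSO, at 0.1% in the sample labels and 2% in the series text. Extracts were made with ethanol from 6 herbs and 2 formulas, each given at a high, a medium and a low dose. Coptidis Rhizoma, a goldthread rhizome, was given at 14, 2.8 and 0.56 µg/mL, and Bupleuri Radix, a Bupleurum root, at 210, 42 and 8.4 µg/mL. For these 2 extracts the high dose was the IC20, the dose that inhibits the cells by 20%, per the series text. The 2 formulas, Banhasasim-tang and Yijung-tang, and 4 herbs, Cimicifugae Rhizoma, Citri Unshius Pericarpium (mandarin peel), Aconiti Lateralis Radix Preparata (processed aconite root) and Zizyphi Fructus (jujube fruit), were given at 500, 100 and 20 µg/mL.

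Of 60 libraries, 58 were used, with totals between 15996157 and 30990264 counts, and 3 were vehicle. Citri, Cimicifugae, Bupleuri and Aconiti had 3 libraries per dose, with 2 kept at high-dose Aconiti. Coptidis, Zizyphi and Yijung-tang had 2 per dose, with 1 kept at low-dose Yijung-tang, and Banhasasim-tang had 1 per dose. The other 2, high-dose Aconiti replicate 1 and low-dose Yijung-tang replicate 1, were left out because they stood apart. Their correlation with replicates of their own group was 0.9168 to 0.9197 over log2 CPM of the tested genes, against 0.9891 to 0.9935 in the 45 other replicate pairs. HMGCS1 was at 4.84 CPM in the Aconiti library that was left out and at 35.4 and 35.3 CPM in its replicates. In one fit of 54 libraries, 17682 genes were tested with edgeR, and a gene was called changed at an adjusted p under 0.05. Of 269 calls among the 14 genes described most closely, 68 held when the 2 libraries were kept, 200 missed the threshold and 1 changed sign, so the main results are given both ways below. The labels do not say that replicates were separate cultures, so p-values measure only the spread between libraries.

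The sample descriptions carry a number, here called the set. Set 11 holds the Zizyphi and Coptidis libraries, set 12 those of Cimicifugae with Citri, set 13 those of Aconiti with Bupleuri, and set 14 those of the formulas. No vehicle library has these numbers, so set and treatment cannot be told apart in comparisons with vehicle. Doses of 1 extract share a set, which is why high and low doses were also compared directly. Of 8 astrocyte and glial markers, VIM at 4438 and GJA1 at 240.2 CPM were abundant in vehicle, whereas GFAP, S100B, AQP4 and ALDH1L1 averaged under 1 CPM. SLC1A3, an astrocyte glutamate transporter, was at 33.6 CPM in vehicle and between 1.89 and 39.1 CPM over all libraries, and NES was at 10.2 CPM and between 1.21 and 12.6 CPM. The summed glial list, mostly VIM, was 4535 to 4928 CPM in vehicle and 3745 to 8205 CPM in extract libraries. Of 4 leukocyte markers, AIF1 was at 0 in vehicle, and the list, mostly the lysosomal gene CD68, summed to 147 to 154 CPM in vehicle and 154 to 281 CPM with extracts. PTPRC, the pan-leukocyte gene, was at 13.4 CPM in vehicle and between 2.79 and 14.2 CPM over all libraries, and CSF1R at 3.54 CPM and between 1.74 and 5.32 CPM. The 4 epithelial markers summed to 254 to 264 CPM in vehicle and 60.2 to 254 CPM with extracts, almost all KRT18 and KRT8, since EPCAM and CDH1 were under 1 CPM throughout. Neuron markers summed to 173.5 to 174.6 CPM in vehicle and 91.2 to 188 CPM with extracts, oligodendrocyte markers to 5.27 to 6.74 and 5.79 to 12.0 CPM with MOG at 0 throughout, and endothelial markers to 0.615 to 1.18 and 0.331 to 1.61 CPM. The part of these markers in the results was not tested, and in bulk RNA fewer cells of a kind and less RNA per cell cannot be told apart.

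Cells control cholesterol through SREBP2, the product of SREBF2, a transcription factor held in the endoplasmic reticulum membrane. When membrane sterol is low, the escort protein SCAP carries SREBP2 to the Golgi, where proteases release it to switch on the synthesis and uptake genes. When sterol is high, INSIG1 and INSIG2 hold SCAP back. In brain, cholesterol is made locally, with astrocytes as a main source. SREBP2 binds short sterol regulatory elements in promoters and acts with NF-Y, which binds the CCAAT box, and with SP1, which binds GC boxes.

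The promoters of 5 members are shown. SREBF2 was the single member whose window held TCACNCCAC, and other spellings of the sterol element were not searched. The others are HMGCS1, INSIG1, LSS and STARD4, whose levels the results below turn on. The sequences are from RefSeq on GRCh38.p14 and run towards the gene from 250 bases before the RefSeq start. They end before the first base that GENCODE v29 assigns to the gene. HMGCS1 has 2 annotated starts, of which 1 is shown. A further CCAAT, 100 bases before that start, lies in the part not printed. Capitals mark TCACNCCAC, a spelling of the sterol element, and CCAAT, on either strand, so that ATTGG is CCAAT read on the other strand.
SREBF2 (chr22:41832855-41833078, plus strand): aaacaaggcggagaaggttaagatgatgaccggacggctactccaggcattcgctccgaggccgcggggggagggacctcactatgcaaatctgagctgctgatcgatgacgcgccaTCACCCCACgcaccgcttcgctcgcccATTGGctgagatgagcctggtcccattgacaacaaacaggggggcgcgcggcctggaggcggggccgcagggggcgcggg
HMGCS1 (chr5:43313513-43313662, minus strand): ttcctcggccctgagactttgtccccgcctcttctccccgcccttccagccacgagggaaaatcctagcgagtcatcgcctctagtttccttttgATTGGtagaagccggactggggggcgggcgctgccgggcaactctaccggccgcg
INSIG1 (chr7:155297628-155297775, plus strand): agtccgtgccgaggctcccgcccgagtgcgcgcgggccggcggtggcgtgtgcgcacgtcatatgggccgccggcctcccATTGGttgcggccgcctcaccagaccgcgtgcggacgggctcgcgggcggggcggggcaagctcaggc
LSS (chr21:46228825-46229024, minus strand): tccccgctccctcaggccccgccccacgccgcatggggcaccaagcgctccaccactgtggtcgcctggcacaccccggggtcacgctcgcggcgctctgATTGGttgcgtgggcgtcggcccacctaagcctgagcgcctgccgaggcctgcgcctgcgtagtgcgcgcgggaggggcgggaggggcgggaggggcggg
STARD4 (chr5:111512591-111512785, minus strand): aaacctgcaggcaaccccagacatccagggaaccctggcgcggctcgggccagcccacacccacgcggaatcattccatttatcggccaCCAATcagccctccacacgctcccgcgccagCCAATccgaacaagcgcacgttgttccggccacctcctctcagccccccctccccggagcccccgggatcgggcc

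The table of promoters matched 27 members with 36 windows of 250 bases. TCACNCCAC was found in 1 of them, that of SREBF2, 133 bases before the start, and in 0.883% of all 35116 windows. CCAAT occurred in 23 of the 36 windows and in 21 of 27 members, against 32% of all windows. GGGCGG, a GC box, was in 31 windows of 24 members and in 42.6% of all, and CACGTG in 4 windows of 3 members and 6.34% of all. CCAAT matches overlapped each other in 2 windows. MVK and MMAB share 211 bases of their windows, so they are not independent. CYP51A1, INSIG2, LBR, NPC1, PMVK and SCAP had no CCAAT in the window. A match is a string of letters and not a measured site.

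In vehicle cells the members spanned a wide range of levels. Per kilobase of exon, the lysosomal sterol carrier NPC2 had 43.2 ± 2.13 CPM per kb (SD, n = 3), CYP51A1 42.2 ± 2.06 and INSIG1 36.4 ± 1.17. The first 2 of these did not differ beyond their spread. PMVK followed at 20.2 ± 0.472 and NPC1 at 19.4 ± 0.271. In the middle of the order, LBR at 15.0 ± 0.157, FDPS at 15.0 ± 0.665, SCAP at 14.7 ± 0.346 and SQLE at 14.6 ± 0.565 did not differ from one another beyond their spread. HMGCS1 came next, at 12.5 ± 0.385. At the lower end were MVK at 1.74 ± 0.132, HSD17B7 at 0.896 ± 0.0697 and TM7SF2 at 0.21 ± 0.0675 CPM per kb. Exons of 16 members overlap another annotated gene, in 9 cases a protein-coding one, so counts of MVK, MMAB, GGPS1, CYP51A1, TM7SF2, NPC1, NPC2, ACAT2 and ERG28 depend on how reads were assigned.

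Against vehicle, part of the synthesis pathway was lower at the high dose in each of the 7 extracts tested, and the sterol sensors split. The share of members called lower was above that of all genes in 5 of 7 extracts. In Coptidis and Yijung-tang it was below that of all genes. NPC1, a lysosomal cholesterol exporter, was higher in 6 of 7 extracts. Of 29 genes, high-dose Cimicifugae had 6 higher and 13 lower, where 35.7% of all tested genes were called, 16.5% higher and 19.2% lower. Aconiti had 3 higher and 13 lower against 27.6% (12.7% higher, 15.0% lower), and Citri 4 higher and 11 lower against 31.5% (14.3% higher, 17.1% lower). Zizyphi had 2 higher and 11 lower against 21.6% (9.64% higher, 12.0% lower). In Bupleuri 7 were higher and 10 lower against 39.6% (20.2% higher, 19.4% lower). Coptidis had 16 higher and 9 lower, where 66.6% of all genes were called, 34.0% higher and 32.6% lower, and Yijung-tang 8 higher and 4 lower against 30.8% (14.1% higher, 16.7% lower). The lowering was the more frequent direction in 5 of 7 extracts. With all libraries kept, 12 members were called in Coptidis, 2 in Zizyphi, 4 in Citri, 4 in Cimicifugae, 6 in Bupleuri, 13 in Aconiti and 2 in Yijung-tang.

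**Figure D1:**
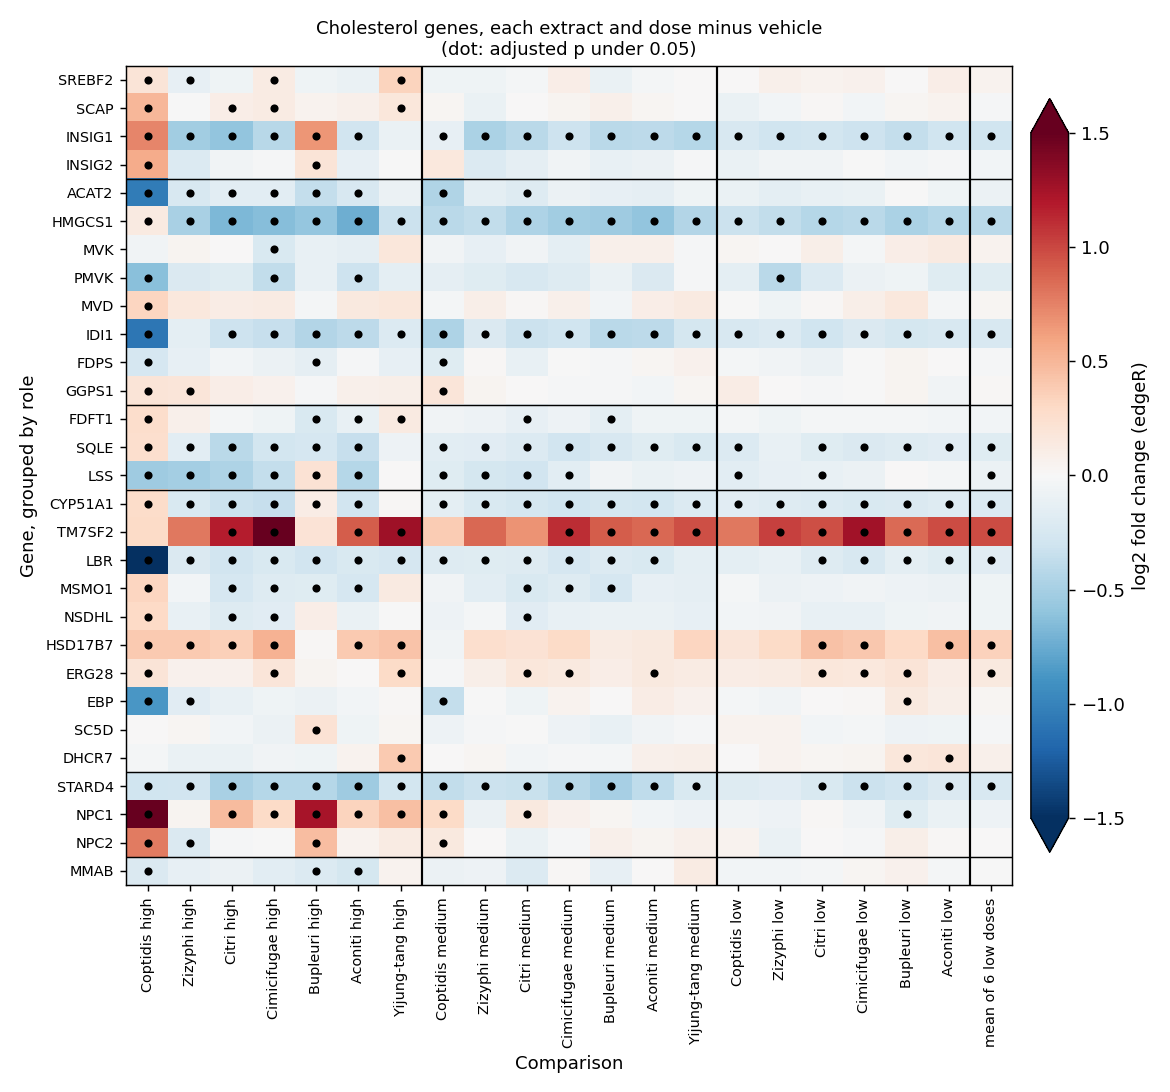
Log2 fold change against vehicle (colour, limited to ±1.5) for the 29 tested genes (rows). Rows are grouped by role, from sterol sensing at the top to MMAB at the bottom. Columns are the high and medium doses of 7 extracts, the low doses of 6 herbs and the mean of those 6 low doses. Banhasasim-tang and low-dose Yijung-tang, without a test, have no column. A dot marks an edgeR adjusted p under 0.05. HMGCS1, IDI1, LBR and STARD4 are lower in most columns, whereas INSIG1 and NPC1 are higher in high-dose Coptidis and Bupleuri.

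INSIG1, which retains SCAP and is itself a target of SREBP2, divided the extracts. Its vehicle libraries had 128, 135 and 135 CPM. High-dose Coptidis libraries had 227 and 213 CPM, and high-dose Bupleuri libraries 217, 209.6 and 204 CPM. High-dose Citri libraries had 88.9, 87.7 and 89.4 CPM. The Coptidis and Bupleuri libraries lay above every vehicle library and the Citri libraries below, without overlap. INSIG1 rose by 0.73 ± 0.044 (log2 fold change ± SE, adjusted p = 5.56e-19) in Coptidis and by 0.66 ± 0.040 (adjusted p = 3.41e-18) in Bupleuri. It fell by 0.59 in Citri, 0.53 in Zizyphi, 0.42 in Cimicifugae and 0.29 in Aconiti, and was not called in Yijung-tang. These 6 calls held with all libraries kept, where the fall in Aconiti was 0.46 (adjusted p = 1.63e-04).

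INSIG2, the second retention protein, had 12.5, 11.9 and 12.6 CPM in vehicle and 16.8 and 19.4 CPM in high-dose Coptidis, a rise of 0.56 ± 0.077 (adjusted p = 1.67e-08). SCAP, the escort, rose by 0.50 ± 0.042 there (adjusted p = 2.34e-14). SREBF2 had 87.8, 89.6 and 91.4 CPM in vehicle and 110.3 and 116 CPM in high-dose Yijung-tang, which rose by 0.33 ± 0.045 (adjusted p = 1.22e-07). All 4 sensors were higher in Coptidis, and none was lower. Once the 2 divergent libraries were included, the adjusted p was 0.0648 for INSIG2 in Coptidis and 0.204 for SREBF2 in Yijung-tang.

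Among the mevalonate enzymes, HMGCS1, which joins acetoacetyl-CoA with another acetyl unit, fell in 6 of 7 extracts. Vehicle libraries had 58, 60.8 and 57.4 CPM. High-dose Aconiti libraries had 35.5 and 35.4 CPM, and high-dose Citri libraries 36, 38.1 and 37.3 CPM. In high-dose Cimicifugae it was at 37, 38.9 and 37.9 CPM. No library of these extracts reached the lowest vehicle value. HMGCS1 fell by 0.73 in Aconiti (SE 0.052, adjusted p = 1.04e-14), 0.67 in Citri, 0.64 in Cimicifugae, 0.58 in Bupleuri, 0.48 in Zizyphi and 0.32 in Yijung-tang. High-dose Coptidis was the exception, at 67.3 and 61 CPM. Its increase of 0.13 had an adjusted p of 0.0181 that became 0.0631 without vehicle replicate 1, 0.0762 without vehicle replicate 3, 0.555 without Coptidis replicate 2 and 0.306 without the filter on low counts. When the 2 divergent libraries were added back, the fall of HMGCS1 in Aconiti was 1.18 (adjusted p = 0.00101), and those in Citri (adjusted p = 0.156), Cimicifugae (0.148), Bupleuri (0.147), Zizyphi (0.611) and Yijung-tang (0.724) missed the threshold.

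IDI1, which interconverts the isoprenoid building blocks, and ACAT2, which makes acetoacetyl-CoA, had their lowest levels in Coptidis. IDI1 was at 51.1, 50.9 and 45.1 CPM in vehicle and at 22.5 and 23.7 CPM in high-dose Coptidis, a fall of 1.08 (SE 0.075, adjusted p = 4.75e-17). ACAT2 was at 42.8, 39.8 and 40.4 CPM and at 20.1 and 19.4 CPM in the same groups, and fell by 1.05 (SE 0.074, adjusted p = 1.40e-16). Both falls were called with all libraries kept. IDI1 fell in 6 of 7 extracts at the high dose, of which the fall of 0.21 in Yijung-tang missed the threshold without vehicle replicate 1 (adjusted p = 0.0692), vehicle replicate 2 (0.0666) or Yijung-tang replicate 2 (0.127). ACAT2 also fell in 6 of 7. Its falls in Citri and Cimicifugae (0.16 each) missed the threshold without vehicle replicate 1 (adjusted p = 0.158 and 0.178), with DESeq2 (0.0505 and 0.0554), without Citri replicate 2 or 3 (0.0883 and 0.153), and without vehicle replicate 3 or Cimicifugae replicate 2 or 3 (0.0584, 0.187 and 0.0699). Those in Zizyphi and Aconiti did so without replicate 2 of the extract (0.109 and 0.108). MVD and GGPS1, a decarboxylase and the geranylgeranyl diphosphate synthase, rose in Coptidis by 0.33 and 0.20, so the branch did not move as a block there. PMVK, a kinase, fell in Coptidis (0.63), Cimicifugae (0.37) and Aconiti (0.31), FDPS in Coptidis and Bupleuri, and MVK in Cimicifugae.

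Squalene epoxidase, encoded by SQLE, and LSS, which closes squalene epoxide into lanosterol, parted company in Coptidis. SQLE had 60.6, 65.5 and 62.8 CPM in vehicle, 76.1 and 73.7 CPM in high-dose Coptidis and 49.7, 49.5 and 44.7 CPM in high-dose Citri. LSS had 71.9, 74 and 71.8 CPM in vehicle, 49.1 and 50.6 CPM in high-dose Coptidis and 52.6, 53.4 and 52.7 CPM in high-dose Citri. In Citri both genes were below all vehicle libraries, in Coptidis only LSS was. SQLE rose by 0.26 in Coptidis (SE 0.048, adjusted p = 8.33e-06) and fell by 0.40 in Citri (SE 0.044, adjusted p = 1.06e-09). LSS fell by 0.54 in Coptidis, 0.51 in Zizyphi, 0.46 in Citri, 0.42 in Aconiti and 0.36 in Cimicifugae. In Bupleuri, LSS had 81.7, 85.7 and 85.6 CPM, above every vehicle library, and rose by 0.22 (SE 0.039, adjusted p = 1.12e-05). In the fit that kept every library, the LSS fall was called in Coptidis, Zizyphi, Citri and Cimicifugae, while that in Aconiti was 0.08 (adjusted p = 0.601) and the rise in Bupleuri had an adjusted p of 0.214. LSS was at 97.8 CPM in the Aconiti library that was left out. FDFT1, squalene synthase, rose in Coptidis and Yijung-tang and fell in Bupleuri and Aconiti.

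Of the 10 genes from lanosterol to cholesterol, LBR, a sterol C14 reductase that is also a nuclear envelope protein, fell in all 7 extracts. Its vehicle libraries had 78.4, 78.7 and 79.95 CPM, and high-dose Coptidis libraries 28.6 and 25.8 CPM. Over all 18 high-dose libraries, Banhasasim-tang included, LBR ran from 25.8 to 71.5 CPM with a median of 64.8, every one below every vehicle library. The fall in Coptidis was 1.53 (SE 0.072, adjusted p = 6.26e-23), and the falls elsewhere were 0.21 to 0.29. If no library was left out, those in Coptidis and Aconiti were called. Without 1 library, the call was lost in Zizyphi (replicate 2, adjusted p = 0.237), Aconiti (replicate 2, 0.146) and Yijung-tang (replicate 1, 0.0811).

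TM7SF2 encodes a second C14 reductase and was at only 0.743, 0.473 and 0.930 CPM in vehicle. It had 1.69, 2.26 and 2.26 CPM in high-dose Cimicifugae and rose by 1.55 (SE 0.261, adjusted p = 6.17e-06), a call that held with all libraries kept. The gene shares exon bases with VPS51 on the same strand and its counts are low, so its values are uncertain. CYP51A1, lanosterol demethylase, had 155, 156 and 143 CPM in vehicle and 187 and 176 CPM in high-dose Coptidis, and 119, 117 and 121 CPM in high-dose Cimicifugae. It rose by 0.27 in Coptidis (SE 0.043, adjusted p = 5.23e-07) and fell by 0.35 in Cimicifugae, 0.32 in Citri, 0.29 in Aconiti and 0.22 in Zizyphi. Its rise of 0.11 in Bupleuri missed the threshold without vehicle replicate 3 (adjusted p = 0.161) or Bupleuri replicate 3 (0.0767). MSMO1, the sterol C4 methyl oxidase, had 42.8, 44.4 and 44.9 CPM in vehicle and 57.4 and 52.2 CPM in high-dose Coptidis, where it rose by 0.32, and it fell in Citri, Cimicifugae, Bupleuri and Aconiti by 0.18 to 0.26. The Cimicifugae fall missed the threshold without vehicle replicate 3 (adjusted p = 0.0567) or Cimicifugae replicate 1 (0.0798), and the Bupleuri fall without vehicle replicate 2 (0.0604), vehicle replicate 3 (0.064) or Bupleuri replicate 2 (0.104). With all libraries kept, the Aconiti falls of CYP51A1 and MSMO1 were called and the others named here were not. HSD17B7, a ketosteroid reductase of the pathway, rose in 6 of 7 extracts by 0.35 to 0.52, EBP fell by 0.87 in Coptidis, and DHCR7, the last reductase of one route, rose by 0.40 in Yijung-tang.

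STARD4, which carries cholesterol between membranes, fell in all 7 extracts. Its vehicle libraries had 49.7, 46.5 and 48.3 CPM. All 18 high-dose libraries lay below them, between 29.4 and 40.7 CPM with a median of 35.4. The falls ran from 0.28 in Yijung-tang (SE 0.071, adjusted p = 0.00197) to 0.53 in Aconiti (SE 0.071, adjusted p = 1.68e-07). Without replicate 2, the Zizyphi fall missed the threshold (adjusted p = 0.0573), and with all libraries kept only that in Aconiti was called (0.92, adjusted p = 0.00287).

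NPC1 and NPC2 pass cholesterol out of lysosomes, and NPC1 rose in most extracts while NPC2 rose in 2. NPC1 had 199, 197 and 193 CPM in vehicle, 602 and 595 CPM in high-dose Coptidis, and 463, 459 and 469.7 CPM in high-dose Bupleuri. All 18 high-dose libraries of the 8 extracts were above every vehicle library, at 201.9 to 602 CPM. NPC1 rose 3.06-fold in Coptidis (log2 1.61, SE 0.042, adjusted p = 2.32e-32) and 2.36-fold in Bupleuri (log2 1.24, SE 0.038, adjusted p = 1.82e-28). Its rises in Citri (0.48), Yijung-tang (0.45), Aconiti (0.33) and Cimicifugae (0.29) were smaller, and Zizyphi had a difference of 0.05 and was not called. NPC2 rose by 0.78 in Coptidis and 0.46 in Bupleuri and fell by 0.22 in Zizyphi, and it was not called in the other 4 extracts (-0.02 to 0.13). Once the 2 divergent libraries were included, the NPC1 rises in Coptidis and Bupleuri were called, and the other 4 had adjusted p-values of 0.0615 to 0.331.

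**Figure D2:**
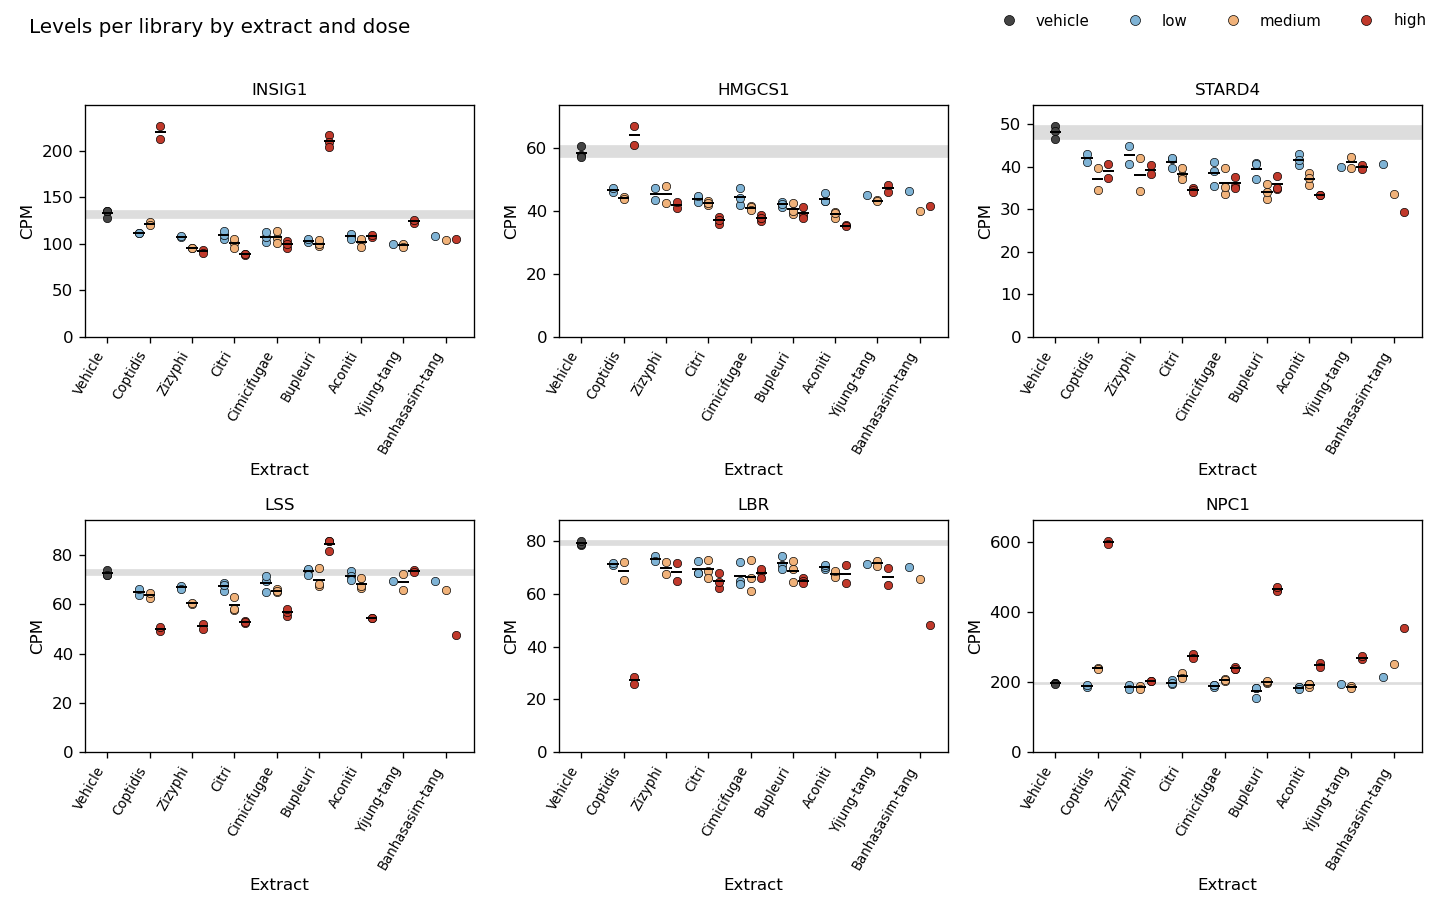
CPM (vertical axis, linear from 0) of INSIG1, HMGCS1, STARD4, LSS, LBR and NPC1 in each of the 58 libraries, by extract and coloured by dose, with a short line at the mean of groups of 2 or more and a grey band for the range of the 3 vehicle libraries. HMGCS1 lies below the band at most doses of most extracts, while NPC1 leaves it mainly at the high dose, up to 602 CPM in Coptidis.

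At the medium dose against vehicle, 6 members were lower in all 7 extracts tested: INSIG1, HMGCS1, IDI1, SQLE, CYP51A1 and STARD4. No member was called in both directions. Citri had 2 higher and 12 lower (17.9% of all genes called, 7.61% higher and 10.3% lower), Coptidis 3 and 11 (25.9%, 13.6% and 12.3%), Cimicifugae 2 and 9 (31.7%, 14.2% and 17.5%) and Bupleuri 1 and 9 (22.7%, 10.1% and 12.6%). Zizyphi had none higher and 8 lower (13.6%, 5.55% and 8.06%), Aconiti 2 and 7 (26.2%, 11.9% and 14.3%) and Yijung-tang 1 and 6 (15.3%, 6.43% and 8.88%). HMGCS1 ran from 37.9 to 48.1 CPM in the 19 medium-dose libraries, with a median of 42.2, and each was below every vehicle library. The same was true of INSIG1, at 95.4 to 123 CPM. The count fell to 8 in Coptidis without its medium-dose replicate 2, to 5 in Zizyphi without vehicle replicate 2 and 3 without its medium-dose replicate 3, and to 4 in Yijung-tang without its medium-dose replicate 2. When the 2 divergent libraries were added back, at most 2 members were called in any of these comparisons.

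Part of the fall was present at the low dose. INSIG1, HMGCS1, IDI1 and CYP51A1 were called lower in all 6 low-dose groups with a test. INSIG1 ran from 100.4 to 114 CPM with a median of 108 in the 18 low-dose libraries, and HMGCS1 from 41.3 to 47.5 CPM with a median of 44.1. Every one of these libraries was below every vehicle library, as were all 18 for SQLE, CYP51A1, LBR and STARD4. Coptidis had none higher and 6 lower (7.33% of all genes called, 3.39% higher and 3.94% lower), Zizyphi 1 and 5 (11.8%, 4.82% and 7.00%) and Citri 3 and 8 (16.1%, 6.81% and 9.26%). Cimicifugae had 3 and 7 (20.8%, 8.78% and 12.0%), Bupleuri 4 and 8 (26.9%, 12.0% and 14.9%) and Aconiti 3 and 7 (20.0%, 8.44% and 11.6%). The calls of IDI1 in Coptidis, Zizyphi and Cimicifugae missed the threshold without vehicle replicate 1 (adjusted p = 0.0775, 0.138 and 0.0502), vehicle replicate 2 (0.101, 0.148 and 0.0517) or low-dose replicate 2 of the extract (0.319, 0.0705 and 0.0854), and in Zizyphi also without low-dose replicate 3 (0.306). Those of CYP51A1 did so in Coptidis without vehicle replicate 2 (0.0681) or low-dose replicate 2 (0.229), and in Zizyphi without low-dose replicate 3 (0.111). The count fell to 2 in Coptidis without vehicle replicate 2 or low-dose replicate 2, to 3 in Zizyphi without vehicle replicate 2 or low-dose replicate 2 and 2 without low-dose replicate 3, and to 7 in Citri without low-dose replicate 2 or 3. In the fit that kept every library, 1 member was called in Cimicifugae and none in the other 5 herbs.

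For the mean of the 6 low doses against vehicle, 8 members were lower and 3 higher, where 25.7% of all genes were called, 14.7% lower and 11.0% higher. HMGCS1 fell by 0.40 (SE 0.035, adjusted p = 2.40e-11), INSIG1 by 0.30 (SE 0.031, adjusted p = 1.60e-09) and CYP51A1 by 0.20 (SE 0.030, adjusted p = 2.89e-06). IDI1 and STARD4 each fell by 0.24, SQLE by 0.18 and LBR by 0.17. Set and treatment cannot be told apart in these values. LSS fell by 0.08, a call that missed the threshold without any 1 of the 3 vehicle libraries (adjusted p = 0.0864 to 0.227), with DESeq2 (0.0868), or without replicate 2 of Coptidis, Citri or Cimicifugae, replicate 2 or 3 of Zizyphi, or replicate 3 of Aconiti (0.0518 to 0.123). TM7SF2 rose by 0.98, HSD17B7 by 0.34 and ERG28, a scaffold of the C4 demethylation complex, by 0.14. NPC1 had a difference of -0.08 and was not called (adjusted p = 0.0584), but was without Citri replicate 2 (0.0488) or any 1 Bupleuri replicate (0.0274 to 0.0369). If no library was left out, INSIG1 (adjusted p = 0.0118) and TM7SF2 (0.0305) were called and HMGCS1 was not (0.418).

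Comparing high with low dose of the same extract keeps the set constant. In Zizyphi, Citri, Cimicifugae and Aconiti 3 to 8 members were called lower at the high than at the low dose. Not all of them, SREBF2 for example, were lower than vehicle at the low dose. In Coptidis 20 of 29 members were called, a share near that of all genes tested. Coptidis had 13 members higher and 7 lower (65.6% of all genes called, 33.2% higher and 32.4% lower), and Bupleuri 8 and 12 (39.2%, 20.6% and 18.6%). Citri had 1 higher and 8 lower (13.8%, 6.43% and 7.34%) and Aconiti 1 and 6 (9.53%, 4.28% and 5.25%). Cimicifugae had 2 and 3 (10.7%, 4.88% and 5.81%), and Zizyphi 1 and 3 (7.39%, 3.12% and 4.28%). The median over members was 0.09 in Coptidis, against -0.024 over all genes tested. In Zizyphi it was -0.07 against 0.002, in Citri -0.08 against 0, and in Cimicifugae -0.06 against 0. In Bupleuri it was -0.11 against -0.002, and in Aconiti -0.10 against 0.003. The count fell to 1 in Zizyphi without high-dose replicate 3 and 2 without low-dose replicate 3, and to 4 in Aconiti without high-dose replicate 3. With all libraries kept, 12 members were called in Coptidis, 3 in Bupleuri, 7 in Aconiti and none in Zizyphi, Citri and Cimicifugae.

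LSS was the member that changed in all 6 extracts between doses. In Zizyphi it had 67.4 and 66.3 CPM at the low dose and 52.1 and 50.01 CPM at the high dose, and in Aconiti 73.4, 71.5 and 70.1 CPM against 54.5 and 54.3 CPM. In Citri the low dose had 68.8, 65.4 and 67.7 CPM and the high dose 52.6, 53.4 and 52.7 CPM. The doses did not overlap in any of these. LSS fell from low to high dose by 0.40 in Aconiti (SE 0.044, adjusted p = 3.44e-09), 0.39 in Zizyphi, 0.38 in Coptidis, 0.35 in Citri and 0.27 in Cimicifugae. In Bupleuri, where the low-dose libraries had 73.8, 74.1 and 72 CPM, it rose by 0.21 (SE 0.038, adjusted p = 1.65e-05). All 6 calls held when any 1 library was left out. Once the 2 divergent libraries were included, only the fall in Coptidis was called (adjusted p = 0.0197).

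HMGCS1 fell further with dose in Aconiti (0.31, SE 0.052, adjusted p = 2.78e-05), Citri (0.25, SE 0.046, adjusted p = 1.56e-04) and Cimicifugae (0.23, SE 0.047, adjusted p = 4.66e-04). Its low-dose difference from vehicle was -0.42 in Aconiti, -0.42 in Citri and -0.40 in Cimicifugae. In Coptidis, HMGCS1 had 46.1 and 47.5 CPM at the low dose and 67.3 and 61 CPM at the high dose and rose by 0.46 (SE 0.055, adjusted p = 8.08e-10). When the 2 divergent libraries were added back, HMGCS1 was not called in any of these (adjusted p = 0.0534 in Aconiti, 0.247 in Coptidis). STARD4 fell further in Aconiti (0.32) and Citri (0.26), and SQLE in Citri (0.22) and Aconiti (0.18). The SQLE call in Aconiti missed the threshold without high-dose replicate 2 (adjusted p = 0.0849) or 3 (0.0676).

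INSIG1 rose with dose in Coptidis by 0.98 (SE 0.049, adjusted p = 1.09e-21) and in Bupleuri by 1.03 (SE 0.040, adjusted p = 8.09e-25). The low-dose libraries had 112 and 112 CPM in Coptidis and 103, 102 and 106 CPM in Bupleuri, a 1.97-fold and a 2.04-fold rise. It fell in Citri by 0.31 (SE 0.041, adjusted p = 3.52e-07) and in Zizyphi by 0.22, a call that missed the threshold without high-dose Zizyphi replicate 3 (adjusted p = 0.0692). The rises in Coptidis and Bupleuri held with all libraries kept. NPC1 rose with dose in 5 of 6 extracts: by 1.67 in Coptidis (SE 0.047, adjusted p = 8.83e-31), 1.42 in Bupleuri, 0.46 in Citri, 0.43 in Aconiti and 0.34 in Cimicifugae. In Zizyphi its increase of 0.12 was not called. In the fit that kept every library, the rises in Coptidis and Bupleuri were called.

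Other members also differed between doses in Coptidis, where most genes did. SCAP rose by 0.60, INSIG2 by 0.66, SQLE by 0.46, CYP51A1 by 0.44, MSMO1 by 0.35 and NPC2 by 0.73. LBR fell by 1.38, ACAT2 by 0.95, IDI1 by 0.85, EBP, the sterol isomerase, by 0.84 and PMVK by 0.48. In Bupleuri, CYP51A1 rose by 0.33, SC5D, the sterol C5 desaturase, by 0.29 and NPC2 by 0.38, while ACAT2 fell by 0.35, EBP by 0.23 and DHCR7 by 0.22. FDFT1 rose by 0.29 in Coptidis and fell by 0.20 in Bupleuri. With the divergent libraries included, INSIG2 (adjusted p = 0.0508), MSMO1 (0.0653) and PMVK (0.216) were not called in Coptidis. In Bupleuri only ACAT2 (0.0102) of these genes was, with FDFT1 at 0.0533, NPC2 at 0.0547 and CYP51A1 at 0.0731.

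**Figure D3:**
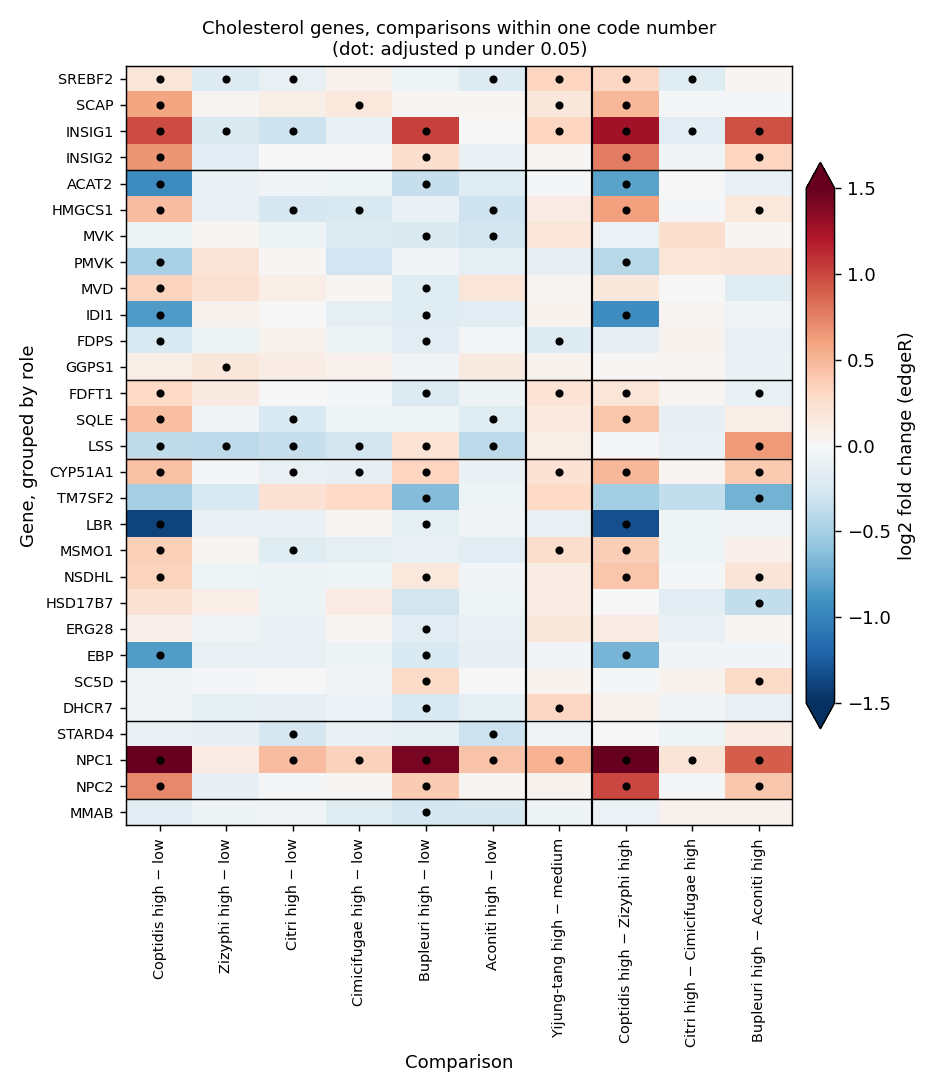
Log2 fold change (colour, limited to ±1.5) of the 29 tested genes (rows, by role) in comparisons within 1 set (columns): high minus low dose of 6 herbs, high minus medium dose of Yijung-tang, and 2 herbs of a set at the high dose, with a dot at an edgeR adjusted p under 0.05. LSS is lower at the high dose in 5 of 6 herbs and higher in Bupleuri, and NPC1 is higher in 5 of 6.

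Between medium and low dose little was called. Coptidis had 2 members higher and 3 lower (13.6% of all genes called, 7.67% higher and 5.89% lower), with NPC1 up by 0.34 (SE 0.047, adjusted p = 3.33e-07), INSIG2 up by 0.26, ACAT2 down by 0.35, EBP down by 0.33 and IDI1 down by 0.23. Without medium-dose replicate 3 or low-dose replicate 3 the count was 3 and 2. IDI1 missed the threshold without either of these or medium-dose replicate 2 (adjusted p = 0.0723 to 0.223), and INSIG2 without either of these or low-dose replicate 2 (0.108 to 0.298) and with DESeq2 (0.122). In Bupleuri only NPC1 was called, with a rise of 0.20 (SE 0.038, adjusted p = 0.00365), where 0.368% of all genes were called, 0.277% higher and 0.0905% lower. It had 183, 185 and 155 CPM at the low and 197, 201 and 203 CPM at the medium dose, and without low-dose replicate 3, the lowest of these, no member was called (NPC1 adjusted p = 0.139). Without low-dose replicate 2, 2 members were called. In Zizyphi, Citri, Cimicifugae and Aconiti edgeR called 0 members, as did DESeq2, with 4, 8, 4 and 6 members at an unadjusted p under 0.05. Of all genes 0.00566%, 0.00566%, 0.385% and 0.0509% were called there. If no library was left out, no member was called between these doses in any extract.

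Yijung-tang, whose low dose kept 1 library, was compared at high and medium dose. There 8 members rose and 1 fell, where 9.17% of all genes were called, 4.12% higher and 5.06% lower. NPC1 had 189.5 and 184 CPM at the medium and 265 and 274 CPM at the high dose and rose by 0.53 (SE 0.047, adjusted p = 1.63e-11). INSIG1 had 100.4 and 97.2 CPM against 122 and 126 CPM and rose by 0.33 (SE 0.050, adjusted p = 5.87e-06). SREBF2 had 90.4 and 90.2 CPM against 110.3 and 116 CPM and rose by 0.33 (SE 0.049, adjusted p = 4.45e-06). The doses did not overlap for these genes. DHCR7 rose by 0.31, CYP51A1 by 0.22, FDFT1 by 0.21, SCAP by 0.17 and MSMO1 by 0.26, the last with an adjusted p of 0.215 without high-dose replicate 2, 0.092 without medium-dose replicate 1 and 0.0745 without medium-dose replicate 2. FDPS, farnesyl diphosphate synthase, fell by 0.19. With all libraries kept, none was called.

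Extracts of 1 set were compared at the high dose, which tests the difference between them. Coptidis at 14 µg/mL and Zizyphi at 500 µg/mL differed in 17 members, 12 higher and 5 lower in Coptidis, where 65.5% of all genes were called, 33.3% higher and 32.2% lower. INSIG1 was higher in Coptidis by 1.26 (SE 0.050, adjusted p = 1.83e-25) and NPC1 by 1.57 (SE 0.047, adjusted p = 6.96e-30). LSS, with 49.1 and 50.6 CPM in Coptidis and 52.1 and 50.01 CPM in Zizyphi, was not called. Bupleuri at 210 µg/mL and Aconiti at 500 µg/mL differed in 12 members, 9 of them higher in Bupleuri, against 32.0% of all genes (17.3% higher, 14.7% lower). LSS was higher in Bupleuri by 0.64 (SE 0.043, adjusted p = 2.20e-16), INSIG1 by 0.96 and NPC1 by 0.91. With all libraries kept these were called too, LSS at 0.30 (adjusted p = 0.0399). Citri and Cimicifugae, both at 500 µg/mL, differed in 3 members against 6.67% of all genes (3.43% higher, 3.24% lower): NPC1 was higher by 0.19 (SE 0.038, adjusted p = 5.93e-04), SREBF2 lower by 0.18 and INSIG1 lower by 0.17 in Citri. The INSIG1 difference missed the threshold without Cimicifugae replicate 2 (adjusted p = 0.0615), and with all libraries kept none of the 3 was called.

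Banhasasim-tang had 1 library per dose, so it has no test. In the high-dose library, 7 members were at least 1.5-fold from the vehicle mean and beyond every vehicle library, where 26.2% of all tested genes were, 13.2% higher and 13.0% lower. NPC1 was at 354 CPM, and STARD4 at 29.4, LBR at 48.2, LSS at 47.4, IDI1 at 31.5 and ACAT2 at 26.4 CPM, with TM7SF2 at 1.23 CPM. The medium-dose library had 1 such member against 10.3% of all genes (6.59% higher, 3.74% lower) and the low-dose library 1 against 6.81% (4.27% higher, 2.54% lower), in both cases TM7SF2. The remaining low-dose Yijung-tang library had 1 as well, against 6.48% (4.30% higher, 2.18% lower).

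Other genes of the pathway were taken from 6 lists, whose counts are read against the share of all genes called at high against low dose: 65.6% in Coptidis, 39.2% in Bupleuri, 13.8% in Citri, 10.7% in Cimicifugae, 9.53% in Aconiti and 7.39% in Zizyphi. Of 10 fatty acid synthesis genes, which SREBP proteins also drive, 8 were lower and 1 higher in Bupleuri, 7 and 1 in Citri, 5 and 0 in Aconiti, and 5 and 2 in Coptidis. In Cimicifugae 4 were lower and 1 higher, and in Zizyphi 4 were lower. The list's median was -0.19 in Bupleuri, -0.14 in Citri, -0.13 in Aconiti, -0.13 in Cimicifugae, -0.11 in Coptidis and -0.10 in Zizyphi, where all genes had -0.024 to 0.003. SCD, the stearoyl-CoA desaturase, fell by 0.46 in Citri (SE 0.037, adjusted p = 1.77e-12) and 0.44 in Aconiti (SE 0.041, adjusted p = 5.15e-11), and SREBF1, which encodes SREBP1, by 0.44 in Citri and 0.34 in Aconiti. FADS2, a fatty acid desaturase, fell by 0.77 and SREBF1 by 0.78 in Bupleuri. In the mean of the low doses against vehicle, 2 of the list were higher and 2 lower, where 11.0% of all genes were higher and 14.7% lower. SREBF1 was higher by 0.26 and FADS2 by 0.16 there, and ACLY was lower by 0.07 and ELOVL5 by 0.13. In Yijung-tang between high and medium dose, 3 of the list were higher and 1 lower, where 9.17% of all genes were called, with SCD up by 0.36. When the divergent libraries were kept, an alternative chosen after seeing the data for these lists, 4 of the list were called lower in Coptidis, 2 lower in Bupleuri and 2 lower in Citri. The share of all genes called was then 43.4% in Coptidis, 13.2% in Bupleuri, 8.63% in Aconiti, 1.06% in Citri, 0.622% in Cimicifugae, 0.146% in Zizyphi and 0.409% in Yijung-tang. In Aconiti 1 was then lower and 1 higher, in Yijung-tang 1 was higher, and none was called in Cimicifugae and Zizyphi. SREBF1 and SCD in Citri (adjusted p = 0.0348 and 0.0401), SCD in Aconiti (0.0114) and SREBF1 and FADS2 in Bupleuri were still called. SREBF1 in Aconiti was at -0.08 (adjusted p = 0.656), and SCD in Yijung-tang had an adjusted p of 0.625.

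LXR is a nuclear receptor that senses oxysterols and switches on efflux genes. Of 7 such genes, 3 rose and 1 fell at high against low dose in Coptidis, a smaller share than the 65.6% of all genes called there. ABCA1, a cholesterol exporter, rose by 2.03 (SE 0.071, adjusted p = 2.15e-27) and LPCAT3 fell by 1.43. ABCG1 rose there by 4.16 and NR1H2 by 0.94. In Bupleuri, with 39.2% of all genes called, 2 rose and 4 fell, with MYLIP down by 1.37 (SE 0.092, adjusted p = 1.22e-16) and LPCAT3 down by 0.49. ABCG1 fell there by 1.77 and ABCA1 by 0.41, while SMPDL3A rose by 0.48 and NR1H2 by 0.18. In Zizyphi 2 fell, ABCA1 by 0.33 and SMPDL3A by 0.69, in Citri 1, ABCA1 by 0.22, and none was called in Aconiti and Cimicifugae. Of 9 tested genes of esterification, oxidation and movement of cholesterol, 5 rose and 1 fell in Coptidis, a share close to that of all genes, with OSBP up by 0.91 and GRAMD1A up by 1.21. In Bupleuri 2 rose and 1 fell, with SOAT1, the esterifying enzyme, up by 0.82 (SE 0.038, adjusted p = 3.20e-22) and GRAMD1B down by 0.64. In Zizyphi 2 rose and 1 fell, in Citri 2 rose, and in Cimicifugae and Aconiti 1 each. When the divergent libraries were kept, the LXR list had 3 higher and 1 lower in Coptidis, 3 lower in Bupleuri and 1 higher in Aconiti, and none called in Zizyphi, Citri and Cimicifugae. The genes named here for Coptidis were still called. In Bupleuri, MYLIP, ABCG1 (adjusted p = 0.033), LPCAT3 (0.0482), SOAT1 and GRAMD1B were, and ABCA1 (0.172), SMPDL3A (0.105) and NR1H2 (0.478) were not. The esterification list then had 4 higher and 1 lower in Coptidis, 1 higher and 1 lower in Bupleuri, 4 higher in Aconiti, and none called in the other 3 herbs.

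Of 10 regulators of SREBP processing and sterol-dependent degradation, 5 were lower and none higher in the mean of the low doses against vehicle, where 14.7% of all genes were lower and 11.0% higher. The list's median was -0.11 against -0.002 over all genes. RNF139 fell by 0.29 (SE 0.051, adjusted p = 3.47e-05) and FAF2 by 0.14. None of the 5 was called when the divergent libraries were kept, where 1.21% of all genes were (RNF139 adjusted p = 0.587, FAF2 0.529). Between high and low dose 4 rose and 4 fell in Coptidis (65.6% of all genes called), with RNF145, a ubiquitin ligase, down by 1.49 and RNF139 up by 1.13, and 3 rose and 3 fell in Bupleuri (39.2%). In Citri 2 fell, in Cimicifugae 1 fell, in Aconiti 1 rose, and none was called in Zizyphi. Of 8 genes of the non-sterol branches, 4 rose and 2 fell in Coptidis, 2 rose and 2 fell in Bupleuri, and none was called in the other 4 herbs. Of 6 lipoprotein receptors and adaptors, 2 rose and 2 fell in Coptidis, with LRPAP1 up by 0.47 and LRP8 down by 0.59. In Aconiti (9.53% of all genes called) 2 rose, and in Bupleuri and Cimicifugae (10.7%) 1 each, while 1 fell in Zizyphi (7.39%) and none was called in Citri. When the divergent libraries were kept, Coptidis had 4 higher and 2 lower of the regulators, 2 lower of the non-sterol branches and 2 higher and 2 lower of the receptors. RNF145, RNF139, LRPAP1 and LRP8 were still called there. Bupleuri then had 1 regulator lower, 1 receptor higher and no non-sterol gene called, and Aconiti 1 regulator and 1 receptor higher. In the mean of the low doses against vehicle (14.7% of all genes lower, 11.0% higher), 3 of the 8 non-sterol genes were lower and none higher. The receptor list and the esterification list had 1 higher and 1 lower each, and the LXR list none called. When the divergent libraries were kept, no gene of any list was called in this comparison.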

How the data were processed

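RNA from SW1783 cells was sequenced with a strand-marking kit, per the labels. The deposited table holds expected counts per gene that the authors estimated, of which 9.18% of values are not whole. The submitters' processing notes name FastQC 0.11.9, Trim Galore 0.6.5, STAR 2.7.3a, RSEM 1.3.3 and GRCh38. Neither the annotation nor the strand setting is given in the sources used here. Counts were rounded to whole numbers. Totals of the 58 libraries used were 15996157 to 30990264. The 2 libraries that stood apart were left out, and 4 libraries had no replicate and no test.

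In R 4.3.3, edgeR 4.0.16 (with limma 3.58.1) filtered genes (filterByExpr, minimum count 10), scaled by TMM and fitted 54 libraries in 21 groups with the quasi-likelihood test, for 37 comparisons, with Benjamini-Hochberg adjustment over 17682 genes in each. Fold changes of the fit are log2 values at edgeR's default prior count. A prior count of 2 was used for log2 CPM, in the correlations and in the libraries without a replicate. CPM use TMM-scaled totals. The text describes most closely the 12 members called in the most comparisons with INSIG1, INSIG2, SREBF2 and NPC1, 14 in all. Members and lists were chosen with earlier results of these data known. Alternatives were DESeq2 1.42.0, RLE factors, a prior count of 0.5 for the libraries without a replicate, no filter, a replicate block, all libraries kept, and leaving out each library. The steps were tested on simulated data.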

Additional observations from a re-analysis of the deposited data

Results flagged for a closer look

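Among the 14 genes described most closely, those below differed between the 2 extracts of a set at the high dose. The test was edgeR's quasi-likelihood test of the difference itself. Other members that differed, such as NPC2 between Coptidis and Zizyphi, are not listed. The 14 genes were chosen in part for being called in the most comparisons. Of the 29 tested members, 58.6% were called between Coptidis and Zizyphi, 10.3% between Citri and Cimicifugae and 41.4% between Bupleuri and Aconiti. The shares of all tested genes called were 65.5%, 6.67% and 32.0% in that order. Values are log2 differences. Doses differed in µg/mL except between Citri and Cimicifugae.

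Between Coptidis and Zizyphi, the sensors were higher in Coptidis, with INSIG1 at 1.26, INSIG2 at 0.77 and SREBF2 at 0.31. HMGCS1 (0.62), SQLE (0.42), CYP51A1 (0.49), MSMO1 (0.37) and NPC1 (1.57) were higher as well. Lower in Coptidis were LBR (-1.32), IDI1 (-0.94) and ACAT2 (-0.80). With all libraries kept, HMGCS1 (adjusted p = 0.112), MSMO1 (0.0554) and SREBF2 (0.113) missed the threshold.

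Between Citri and Cimicifugae, NPC1 was higher in Citri by 0.19, with INSIG1 at -0.17 and SREBF2 at -0.18. INSIG1 missed the threshold without Cimicifugae replicate 2 (adjusted p = 0.0615). All 3 missed the threshold with all libraries kept, where the adjusted p was 1.0.

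Between Bupleuri and Aconiti, INSIG1 (0.96), NPC1 (0.91), LSS (0.64), CYP51A1 (0.40), INSIG2 (0.32) and HMGCS1 (0.15) were higher in Bupleuri and TM7SF2 (-0.71) was lower. HMGCS1 had an adjusted p of 0.0195 and missed the threshold with no filter on low counts (0.153) with all libraries kept (0.0757), and without Aconiti replicate 2 (0.0887) or 3 (0.102) or Bupleuri replicate 3 (0.107). TM7SF2 had 0.0365 and missed it with DESeq2 (0.0869), with no filter (0.0557), and without Bupleuri replicate 1 (0.092) or 3 (0.151) or Aconiti replicate 3 (0.729).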

How the results depend on the processing

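Keeping the 2 libraries that stood apart changed the results most. All comparisons share 1 estimate of the spread, which then includes both libraries, and the cause was not tested further. The number of members called against vehicle at the high dose was then 12 in Coptidis, 2 in Zizyphi, 4 in Citri, 4 in Cimicifugae, 6 in Bupleuri and 2 in Yijung-tang, and 13 in Aconiti. At the medium dose it was 1 in Coptidis, Zizyphi, Citri, Bupleuri and Aconiti, 2 in Cimicifugae and 0 in Yijung-tang. At the low dose it was 1 in Cimicifugae, 0 in Coptidis, Zizyphi, Citri, Bupleuri and Aconiti, and 2 for the mean of the low doses. Between high and low dose it was 12 in Coptidis, 3 in Bupleuri, 7 in Aconiti and 0 in Zizyphi, Citri and Cimicifugae. It was 0 between medium and low dose in Coptidis and Bupleuri and between high and medium dose in Yijung-tang. Between extracts of a set it was 12 in Coptidis against Zizyphi, 0 in Citri against Cimicifugae and 13 in Bupleuri against Aconiti. SREBF2 between high and low dose of Aconiti went from -0.19 to 0.097 (edgeR adjusted p = 0.626).

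Leaving out 1 library at a time, the count at the medium dose against vehicle was 8 to 14 in Coptidis, 3 to 9 in Zizyphi and 4 to 7 in Yijung-tang. At the low dose it was 2 to 6 in Coptidis, 2 to 6 in Zizyphi, 7 to 10 in Citri and 8 to 13 in Bupleuri. Between high and low dose it was 1 to 4 in Zizyphi, 6 to 7 in Citri and 4 to 7 in Aconiti. Between medium and low dose it was 2 to 5 in Coptidis and 0 to 2 in Bupleuri, where it was 2 without the filter on low counts. It was 6 to 9 between high and medium dose of Yijung-tang and 2 to 3 between Citri and Cimicifugae. DESeq2 and RLE factors moved no count by more than 1.5 times.

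Same-numbered libraries did not deviate together: in 0 of 19 comparisons with 3 pairs were all correlations above 0.1. Over 91 pairs the correlations ran from -0.068 to 0.139. Where both groups have 2 libraries, both pairs give the same value by construction, so these are not 91 separate values. The replicate block gave 8 members called between high and low dose in Citri and 12 at high-dose Zizyphi against vehicle, and moved no count by more than 1.5 times. With it, IDI1 in low-dose Zizyphi missed the threshold (adjusted p = 0.0527), as did MSMO1 between doses of Citri (0.0515) and TM7SF2 between Bupleuri and Aconiti (0.0502). Depth limits NPC1L1, which was not tested, and TM7SF2, at under 1 CPM in vehicle.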
